A study of Mus musculus with 12 samples.

Results

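Carboxylesterases were examined in mouse adult fibroblasts (MAFs) around 1 gene, Ces2e, and its relatives in the Ces1 and Ces2 subfamilies. The members were the listed genes Ces2e, Ces2f, Ces2g, Ces2c, Ces1d, Ces1f and Ces1g, which are 7 of the 49315 genes in the count tables and 7 of the 19 carboxylesterases among them. Ces2e was chosen by its measured counts, namely a large rise in senescent cells lacking BMAL1, so values of that contrast are a description and were not tested. All 7 members were listed in the tables, and 4 of them (Ces2e, Ces2f, Ces2g and Ces1f) passed the filter on low counts that left 17416 genes for testing.

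RNA was sequenced from primary MAFs isolated from the ears of adult female mice, either C57BL6/J wild-type (WT) or Bmal1 -/- (KO, labelled BMAL1 -/-), a whole-body deletion of the clock transcription factor BMAL1, whose gene is annotated as Arntl. A sham exposure was given to the control cells, and 20 Gy of X-rays induced senescence in the rest. Cells of all 4 groups were kept at 3% oxygen, treated with 100 nM dexamethasone, a glucocorticoid, for 2 h, and collected 12 h later, so no library shows cells without this hormone. Crossing genotype with exposure gave WT and KO control cells and WT and KO senescent cells, with 3 libraries per group. The labels do not say whether the replicates came from separate cultures or animals, and the p-values therefore measure only the spread between these libraries.

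Carboxylesterases are serine hydrolases, most of them held in the lumen of the endoplasmic reticulum, that cleave ester and amide bonds in drugs, environmental chemicals and lipids. In the mouse the family has expanded by tandem duplication into gene clusters, and its best known sites of expression are liver, intestine and, for several Ces1 genes, adipose tissue. Ces1d is known as triacylglycerol hydrolase and Ces1g as a liver lipid hydrolase, whereas Ces2 enzymes act on neutral lipids and on ester drugs.

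The members lie in 2 clusters on chromosome 8 (GRCm38). The Ces1 cluster ran from 93020214 to 93379725 and held 8 genes, and the Ces2 cluster ran from 104734003 to 105021178 and held 7 genes, 11354277 bases away. Ces2c (ENSMUSG00000061825, 104847068 to 104854483), Ces2e (ENSMUSG00000031886, 104926260 to 104934672), Ces2f (ENSMUSG00000062826, 104947356 to 104960047) and Ces2g (ENSMUSG00000031877, 104961718 to 104969537) are on the plus strand. Ces1d (ENSMUSG00000056973, 93166068 to 93197838), Ces1f (ENSMUSG00000031725, 93256236 to 93279747) and Ces1g (ENSMUSG00000057074, 93302369 to 93337308) are on the minus strand. The exons of none of the 7 overlapped another annotated gene. Coding sequences of the 4 Ces2 members were 80.2% to 85.2% identical to each other and those of the 3 Ces1 members 74.4% to 81.6%, and across the subfamilies identity was 56.6% to 58.5%. Despite this likeness, 0% of windows of 100 or 150 bases in the transcripts of 6 members were found unchanged in another gene. Ces2c was the exception, with 13.6% of its 100-base windows and 2.84% of its 150-base windows also present in the pseudogenes Ces2d-ps, Gm8798 or Gm6831. Its count is uncertain to that extent, since only uniquely mapped reads were counted.

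The bases before the annotated starts of the 4 Ces2 members are shown because these neighbouring copies were read at very different levels in the same cells. RefSeq windows (GRCm38.p6, from 250 bases before to 50 bases after the start) were given for 5 of the 7 members, and those of Ces1d and Ces1f were not analysed here. Each line below gives the 250 bases before the start on the plus strand, 5′ to 3′, with capitals for the 9 bases ACTTTGCCC, the longest run common to Ces2e, Ces2f and Ces2g.
Ces2e, chr8:104926010-104926259: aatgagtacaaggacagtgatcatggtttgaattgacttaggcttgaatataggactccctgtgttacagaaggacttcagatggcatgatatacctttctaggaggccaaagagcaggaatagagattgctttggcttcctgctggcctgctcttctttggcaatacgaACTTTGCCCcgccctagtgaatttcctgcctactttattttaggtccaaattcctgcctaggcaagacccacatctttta
Ces2f, chr8:104947106-104947355: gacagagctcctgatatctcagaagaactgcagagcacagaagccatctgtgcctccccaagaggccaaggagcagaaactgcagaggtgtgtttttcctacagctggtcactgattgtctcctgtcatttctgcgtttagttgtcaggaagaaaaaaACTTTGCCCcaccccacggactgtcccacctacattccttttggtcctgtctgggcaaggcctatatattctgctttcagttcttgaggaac
Ces2g, chr8:104961468-104961717: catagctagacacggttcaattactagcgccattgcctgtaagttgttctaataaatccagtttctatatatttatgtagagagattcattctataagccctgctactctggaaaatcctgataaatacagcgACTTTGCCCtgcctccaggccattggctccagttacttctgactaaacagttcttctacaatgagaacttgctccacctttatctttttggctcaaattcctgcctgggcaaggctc
Ces2c, chr8:104846818-104847067: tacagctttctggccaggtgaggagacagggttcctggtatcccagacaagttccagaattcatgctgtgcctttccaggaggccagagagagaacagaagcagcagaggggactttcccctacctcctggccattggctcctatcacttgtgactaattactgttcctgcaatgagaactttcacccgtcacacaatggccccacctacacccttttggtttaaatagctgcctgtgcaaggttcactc
The run begins at position −80 in Ces2e, −92 in Ces2f and −117 in Ces2g, counted back from the start, and is absent from the Ces2c window. It was present in 0.262% of the 32851 promoter windows (86 windows, either strand), and it was looked for after the 4 windows had been seen, so it is a description of related copies. On both strands, none of the 5 member windows held the E-box CACGTG bound by BMAL1 and its partners (7.15% of all windows did), the AP-1 site TGACTCA (5.2%), the xenobiotic response core GCGTG (32.4%) or the antioxidant response core TGACNNNGC (12.4%). The absence of these letters from 300 bases says nothing about sites elsewhere. The windows of Ces2e, Ces2f, Ces2g, Ces2c and Ces1g held 2, 3, 4, 1 and 2 CpG dinucleotides, against a median of 7 over all windows.

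Depth was similar in all libraries, from 23923030 to 31736083 counts, with scaling factors of 0.926 to 1.07. Levels are given as CPM, the count of a gene scaled to the same total in every library, and 3 counts, taken as the floor of detection, were worth 0.101 to 0.135 CPM. Intervals and floors cover counting error only and leave out the spread between libraries. Reads carried no molecular identifiers, so repeated reads of a molecule may have been counted more than once. Arntl was lower in every KO library (11.8 to 27.4 CPM) than in every WT library (29.8 to 37.3 CPM), although its reads were counted in all KO libraries. Its mean went from 13.2 CPM in control to 26.6 CPM in senescent KO cells, and from 31.5 to 36.1 CPM in WT cells. KO relative to WT was thus −1.26 (SE 0.0863) in control but −0.44 (SE 0.0799) in senescent cells on the log2 scale. The counts were deposited as 2 tables, 1 for each genotype, so whatever sets the tables apart and whatever sets the genotypes apart cannot be told apart when KO is compared with WT. Fibroblast markers were abundant in all groups, with 8 genes summing to 19900 to 26200 CPM in control and 9570 to 11900 CPM in senescent libraries, and with senescence 3 of the 8 were called lower in each genotype, while 2 were called higher in WT and 1 in KO. The collagen markers had lower means in senescent cells of both genotypes. Col1a1 averaged 7320 (WT control), 1750 (WT senescent), 9320 (KO control) and 2950 CPM (KO senescent). With groups listed likewise, Col1a2 averaged 4850, 1970, 6840 and 2950 CPM, and Col3a1 3890, 1800, 4970 and 1620 CPM. Dcn went the other way, at 28.9, 299, 25.0 and 272 CPM, and Lum and Thy1 also had higher means in senescent cells of both genotypes.

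Ces2e rose with senescence in WT cells, a contrast other than the KO one for which it was noticed, although earlier results of all 12 libraries were known when it was chosen. In WT control replicates 1 to 3 it had 20, 16 and 14 counts (0.804, 0.651 and 0.632 CPM), and in WT senescent replicates 1 to 3 it had 347, 298 and 275 counts (11.8, 10.0 and 10.6 CPM). The groups did not overlap, and the lowest senescent library stood far above the highest control library. The mean went from 0.695 ± 0.0943 to 10.8 ± 0.902 CPM (SD, n = 3). The log2 fold change was 3.945 (SE 0.178), with an adjusted p of 9.27e-14 by edgeR's quasi-likelihood (QL) test with Benjamini-Hochberg adjustment over all genes tested, the test behind every adjusted p given here.

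Ces2g, the last of 3 adjacent genes that begin with Ces2e, was the carboxylesterase with the highest level per exon length in every group and rose by a smaller factor. It had 239, 233 and 203 counts in WT control replicates (9.60, 9.48 and 9.16 CPM) and 737, 814 and 578 counts in WT senescent replicates (25.0, 27.4 and 22.3 CPM). Again no control library reached a senescent one. The mean went from 9.41 ± 0.23 to 24.9 ± 2.55 CPM (SD, n = 3), and the log2 fold change was 1.404 (SE 0.0875, QL adjusted p 1.59e-11).

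Ces2f, which lies between Ces2e and Ces2g, was close to absent from control cells. It had 1, 1 and 0 counts in WT control replicates and 39, 29 and 23 counts in WT senescent replicates (1.33, 0.975 and 0.886 CPM). The senescent libraries were all above the floor, and the control libraries were all below it. The ratio of summed counts was 38.3 (exact 95% interval 10.3 to 321), and the fitted log2 fold change was 5.04 (SE 0.652, QL adjusted p 1.06e-06).

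Ces1f, a member of the other cluster, was not counted in any WT control library. WT senescent replicates had 33, 26 and 18 counts (1.12, 0.875 and 0.694 CPM). The level in WT senescent cells was at least 7.12-fold higher than a floor of 3 counts per control library, and the QL adjusted p was 3.3e-06. Its fitted log2 fold change, 7.59 (SE 1.02), rests on control counts of 0 and is no bound.

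The other 3 members stayed near the floor and did not pass the filter. Ces2c had 0 counts in all WT control libraries and 6, 3 and 3 counts in WT senescent libraries, at least 1.11-fold above the floor. Ces1d, the triacylglycerol hydrolase, had 0, 1 and 0 counts against 1, 1 and 0 counts, so no change in it was detectable at this depth. Ces1g had 0 counts in all WT control libraries, and all 4 of its WT senescent counts were in replicate 1. In a fit with no filter, the WT senescence adjusted p was 0.017 for Ces2c, 0.236 for Ces1g and 0.906 for Ces1d.

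Thus all 4 members tested in WT cells were called, which here requires an adjusted p under 0.05 and a log2 fold change over 1 in size, and all 4 were higher. Of all genes tested, 11.6% were called higher in this comparison. Ces2f and Ces1f passed the filter only through their senescent libraries and therefore had to differ. Their adjusted p-values above and the count over the tested members are thus no support. Ranked from the largest rise among the 17416 genes, Ces2e was 148th and Ces2g 1426th.

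**Figure D1:**
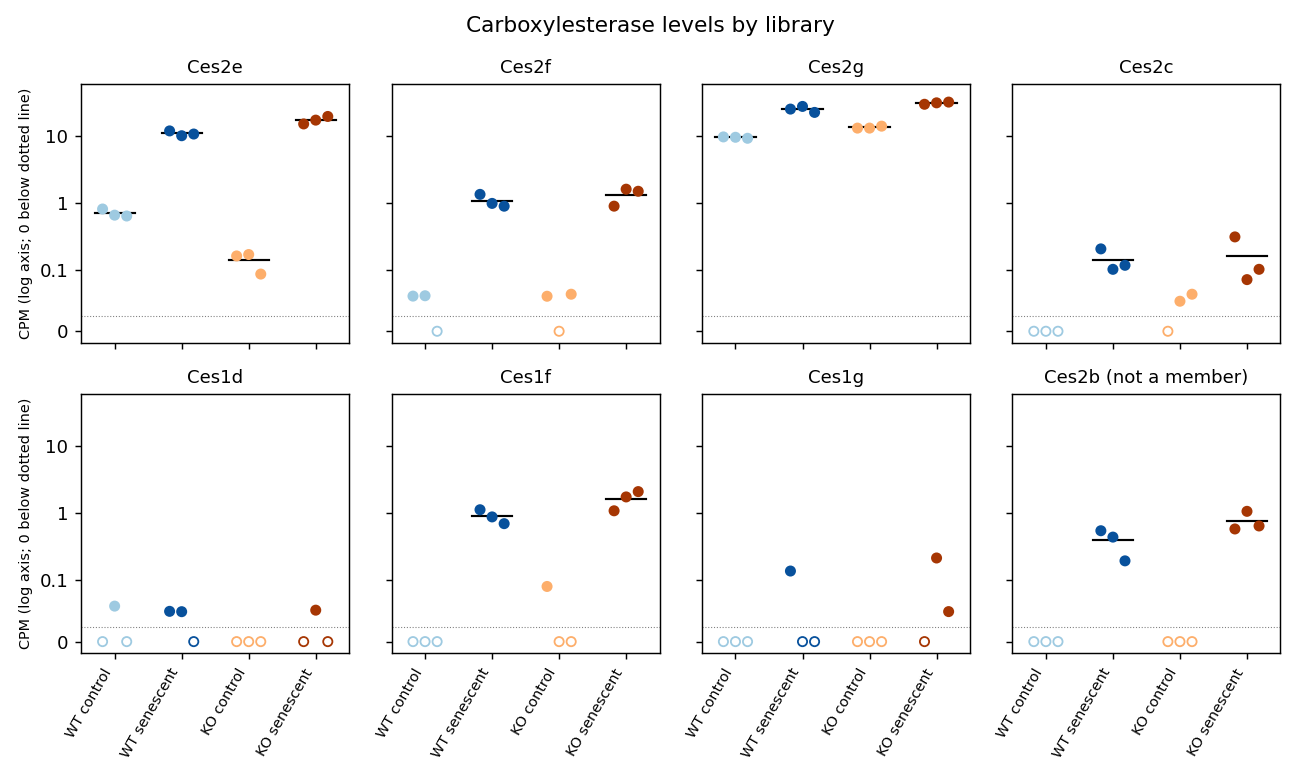
CPM of the 7 members and of Ces2b in each of the 12 libraries, on a log axis (points, replicates 1 to 3 from left to right; bar, mean where all 3 libraries had counts; open points on the lowest line, 0 counts). Ces2e lay between 0.0858 and 0.804 CPM in the 6 control libraries and between 10.0 and 19.4 CPM in the 6 senescent libraries, while Ces1d stayed at or below 1 count throughout.

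Of the other carboxylesterases, 12 genes were listed and 1 passed the filter. That gene, Ces2b, a gene of the same cluster with 91.3% coding identity to Ces2c, had 0 counts in all 6 control libraries, 16, 13 and 5 counts in WT senescent libraries and 15, 30 and 19 counts in KO senescent libraries. All senescent libraries exceeded all control libraries. The level was at least 3.11-fold higher than the floor in WT cells (QL adjusted p 0.000308) and at least 6.53-fold higher in KO cells (QL adjusted p 1.94e-05). Ces2b too passed the filter only through its senescent libraries and had to differ, so these values are no support for the members. Ces1a had 0 to 3 counts in 11 libraries and 18 counts in KO senescent replicate 3. Its ratio of summed counts in KO cells, 10.2 (exact 95% interval 2.52 to 89.9), rests on that library. The other 10 genes had at most 4 counts in any library, and Ces2a and Ces3b had 0 counts in all 12.

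Senescence in KO cells is the contrast from which Ces2e was chosen, so the members' values are given with no test. Ces2e had 4, 5 and 2 counts in KO control replicates (0.160, 0.168 and 0.0858 CPM) and 390, 482 and 576 counts in KO senescent replicates (15.0, 17.1 and 19.4 CPM). Replicate 3 of the KO control cells was below the floor, and all KO senescent libraries were above the highest WT senescent library. The mean went from 0.138 ± 0.0454 to 17.2 ± 2.2 CPM (SD, n = 3). The ratio of summed counts, 1448 against 11, was 123 (exact 95% interval 68.3 to 246), and the fitted log2 fold change was 6.885 (SE 0.222), the 23rd largest rise of the 17416 genes.

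Ces2g in KO cells had 324, 386 and 324 counts in control replicates (13.0, 13.0 and 13.9 CPM) and 765, 875 and 944 counts in senescent replicates (29.5, 31.0 and 31.8 CPM). The groups did not overlap, and the highest senescent library was 1.08-fold above the lowest. The log2 fold change was 1.21 (SE 0.0833).

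Ces2f had 1, 0 and 1 counts in KO control replicates and 23, 45 and 44 counts in KO senescent replicates (0.887, 1.59 and 1.48 CPM). Ces1f had 2, 0 and 0 counts against 28, 49 and 62 counts (1.08, 1.74 and 2.09 CPM). For both genes every senescent library was above every control library, and KO senescent replicate 1 was the lowest of its group. The ratios of summed counts were 52.1 (exact 95% interval 14.1 to 436) for Ces2f and 64.7 (17.6 to 540) for Ces1f. The fitted log2 fold changes were 5.45 (SE 0.631) and 5.76 (SE 0.673), and that of Ces1f was 8.46 without KO control replicate 1, the only KO control library with counts of the gene. With each library left out in turn, that of Ces2f ranged from 4.84, without KO control replicate 2, to 5.85, without KO control replicate 3.

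Ces2c had 0, 1 and 1 counts in KO control libraries and 8, 2 and 3 counts in KO senescent libraries. Its ratio of summed counts was 6.05 (exact 95% interval 1.37 to 55.2). Ces1d had 1 count in all 6 KO libraries together, and Ces1g had none in KO control libraries and 0, 6 and 1 counts in KO senescent libraries. No change in Ces1d was detectable at this depth, and the Ces1g counts came mainly from replicate 2. The 4 members that passed the filter had fitted log2 fold changes over 1 in KO cells, where 11.2% of all genes tested were called higher. Nothing is read from that count, since Ces2e was chosen in this contrast and Ces2f and Ces1f passed the filter only through their senescent libraries.

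The 2 genotypes were then compared within each state, to ask how far the carboxylesterases differed without BMAL1. In control cells Ces2e was lower in KO (4, 5 and 2 counts) than in WT (20, 16 and 14 counts), with no overlap between the libraries. The fitted log2 fold change between genotypes was −2.27 (SE 0.355), given as a description because the KO control libraries entered the choice of the gene. Without KO control replicate 3, the library with the fewest counts, it was −2.05. In senescent cells the order was opposite, with 15.0 to 19.4 CPM in KO against 10.0 to 11.8 CPM in WT, no overlap, and a log2 fold change of 0.67 (SE 0.124).

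The interaction, which is the senescence change in KO cells minus that in WT cells, was 2.94 (SE 0.373) for Ces2e, likewise a description, while 3.66% of all genes tested were called in that comparison. It equals the genotype difference of 0.67 in senescent cells less that of −2.27 in control cells. Of the other members, Ces2g had an interaction of −0.19 (SE 0.121), Ces2f of 0.41 (SE 1.42) and Ces1f of −1.83 (SE 1.55). The control groups of Ces2f and Ces1f held at most 2 counts in all, and the Ces1f value changed sign, to 0.86, without KO control replicate 1.

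Of the 6 members other than Ces2e, the 3 that passed the filter (Ces2f, Ces2g and Ces1f) were tested between genotypes, and none of these was called in control cells, where 2.54% of all genes tested were called in either direction, or in senescent cells, where 3.48% were. Ces2g came nearest. It was higher in every KO control library (13.0 to 13.9 CPM) than in every WT control library (9.16 to 9.60 CPM), at a log2 difference of 0.49 (SE 0.0912, QL adjusted p 0.000781), below the fold threshold. In senescent cells all KO libraries (29.5 to 31.8 CPM) also exceeded all WT libraries (22.3 to 27.4 CPM), at a log2 difference of 0.30 (SE 0.0791, QL adjusted p 0.00718). Without WT senescent replicate 3, the lowest of its group, the log2 fold change was 0.23 and the adjusted p 0.066. On the adjusted p alone, without the fold threshold, Ces2g was the 1 member called in each state, beside 13.0% of all genes tested in control and 23.7% in senescent cells.

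Between genotypes the libraries of Ces2f overlapped in both states, with log2 fold changes of −0.10 in control cells (SE 1.21, QL adjusted p 0.972) and 0.32 in senescent cells (SE 0.356, QL adjusted p 0.572). Ces1f in senescent cells ranged from 1.08 to 2.09 CPM in KO and from 0.694 to 1.12 CPM in WT, which overlapped, at a log2 difference of 0.86 (SE 0.389, QL adjusted p 0.12). In control cells its adjusted p was 0.374 on 2 counts in KO and none in WT. These comparisons do not show that the genotypes were alike. The standard errors leave room for differences of more than 1 on the log2 scale for Ces1f in either state. The same holds for Ces2f, at least in control cells.

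**Figure D2:**
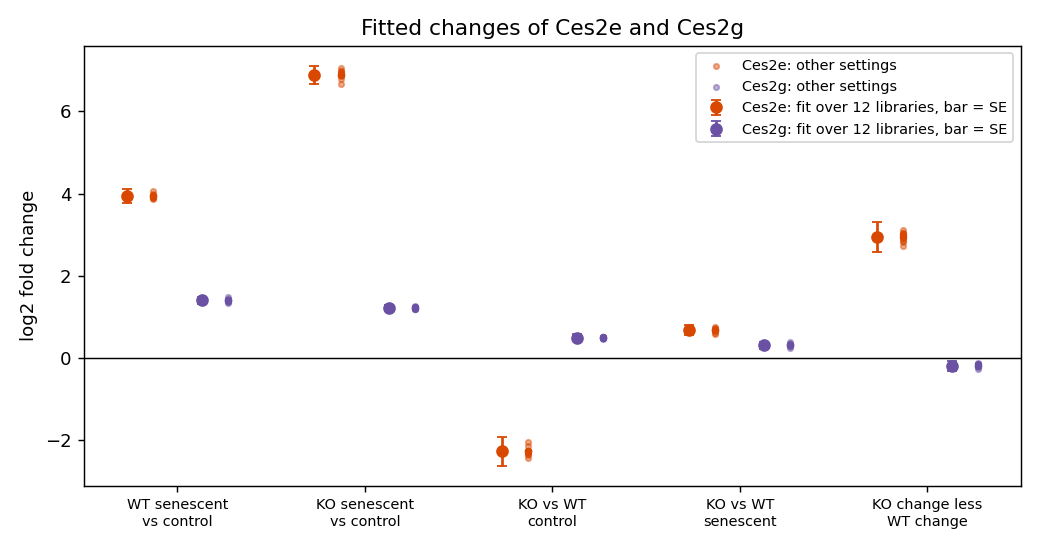
Fitted log2 fold changes of Ces2e (orange) and Ces2g (purple) in the 5 comparisons (large points, fit over 12 libraries with SE bars; small points, every other setting tried, including each library left out). Ces2e lay above Ces2g in both senescence comparisons, at 3.945 and 6.885 against 1.40 and 1.21, and below 0 only for KO against WT control cells, at −2.27.

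Levels of different genes were compared as CPM per kb of exon. In control cells expression of the family came almost wholly from Ces2g, which took 87.2% to 89.3% of the per-length total of the 19 carboxylesterases in WT libraries and 96.2% to 98.5% in KO libraries. Ces2e took 8.12% to 9.66% in WT control and 0.805% to 1.65% in KO control libraries. In senescent cells the share of Ces2g was 56.5% to 63.2% in WT and 50.5% to 56.3% in KO, and that of Ces2e was 30.6% to 36.6% in WT and 38.0% to 40.8% in KO. The shares of the 2 genes thus moved in opposite directions in both genotypes although the level of each was higher.

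The ratio of Ces2e to Ces2g per length was 0.0977 ± 0.0115 in WT control, 0.579 ± 0.0818 in WT senescent, 0.0139 ± 0.00497 in KO control and 0.737 ± 0.0669 in KO senescent cells (SD, n = 3). Across all 19 genes the summed level was 9.97 to 10.6 CPM in WT control, 34.9 to 40.4 CPM in WT senescent, 13.4 to 14.1 CPM in KO control and 47.4 to 56.4 CPM in KO senescent libraries. The 4 groups did not overlap in this sum. Among all genes tested, 17.7% had a lower mean CPM than Ces2e in WT control cells and 46.8% in WT senescent cells, against 2.8% and 54.9% in KO cells.

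Ces2g was first and Ces2e the next in the per-length order in every group, and their libraries never overlapped. Ces2g had 2.63 ± 0.0643, 6.97 ± 0.715, 3.72 ± 0.15 and 8.61 ± 0.334 CPM per kb in the order WT control, WT senescent, KO control, KO senescent, and Ces2e had 0.258 ± 0.0349, 4.0 ± 0.334, 0.0511 ± 0.0168 and 6.37 ± 0.816 CPM per kb (SD, n = 3). In KO control cells Ces2e overlapped Ces4a, the next in order, at 0.0239 CPM per kb. In WT senescent cells Ces1f (0.273 CPM per kb) and Ces2f (0.216) followed and overlapped each other, with Ces2b (0.115) below both without overlap with Ces2f. In KO senescent cells Ces1f (0.498) stood above Ces2f (0.268) with no overlap, and Ces2f overlapped Ces2b (0.223).

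**Figure D3:**
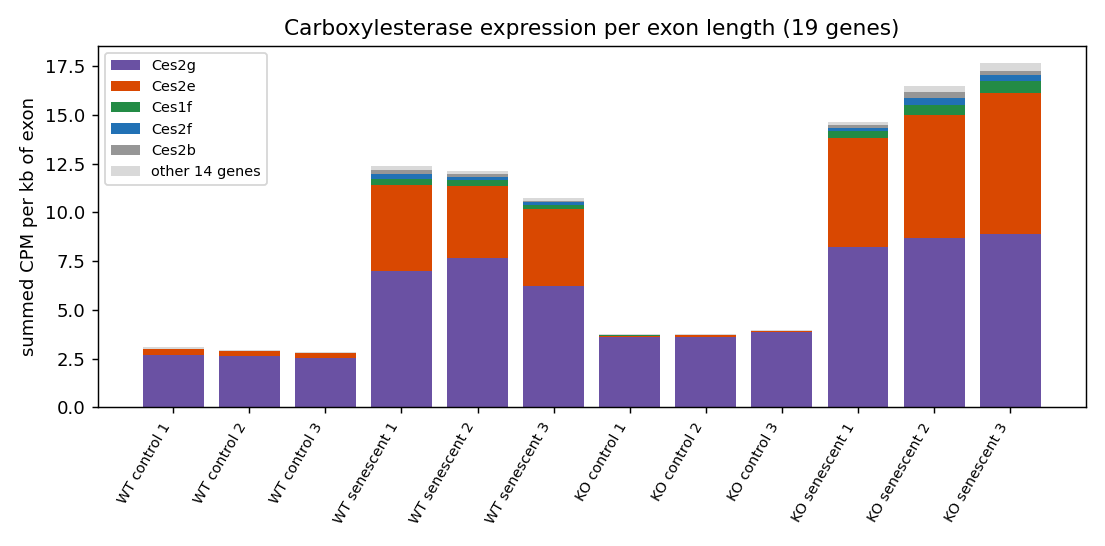
Stacked CPM per kb of exon of the 19 carboxylesterases in each library. Ces2g (purple) made up nearly the whole of each control bar, and Ces2e (orange) made up 30.6% to 40.8% of each senescent bar.

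Ces2e, Ces2f and Ces2g follow each other on the plus strand, and the level of the middle gene, Ces2f, was lower per length than that of either flanking gene in every group. Of 27 other annotated genes within 200 kb of the cluster, 7 were tested and 2 were called, both higher in senescent cells of both genotypes. Among all genes tested 11.6% were called higher in WT and 11.2% in KO, and nothing is read from a count over 7 genes. Rrad, which encodes a small GTPase, rose on the log2 scale, by 1.32 in WT (SE 0.184, adjusted p 2.98e-06) and 1.49 in KO (SE 0.174, adjusted p 2.59e-07). Car7, a carbonic anhydrase, changed by 1.57 (QL adjusted p 0.0193) and by 2.03 (QL adjusted p 0.00395). Car7 had 2 to 6 counts in control libraries and passed the filter only through its senescent libraries, so its values are no support. Within 200 kb of the Ces1 cluster 15 other genes were annotated and 5 tested, and none was called with senescence in either genotype. There Slc6a2, the noradrenaline transporter gene, had 10, 11 and 11 counts in WT control and 2, 2 and 4 counts in KO control libraries, which is −2.07 on the log2 scale (SE 0.666, QL adjusted p 0.044). In that comparison 2.54% of all genes tested were called. Slc6a2 passed the filter only through its WT control libraries, where it was high, so its values are no support.

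**Figure D4:**
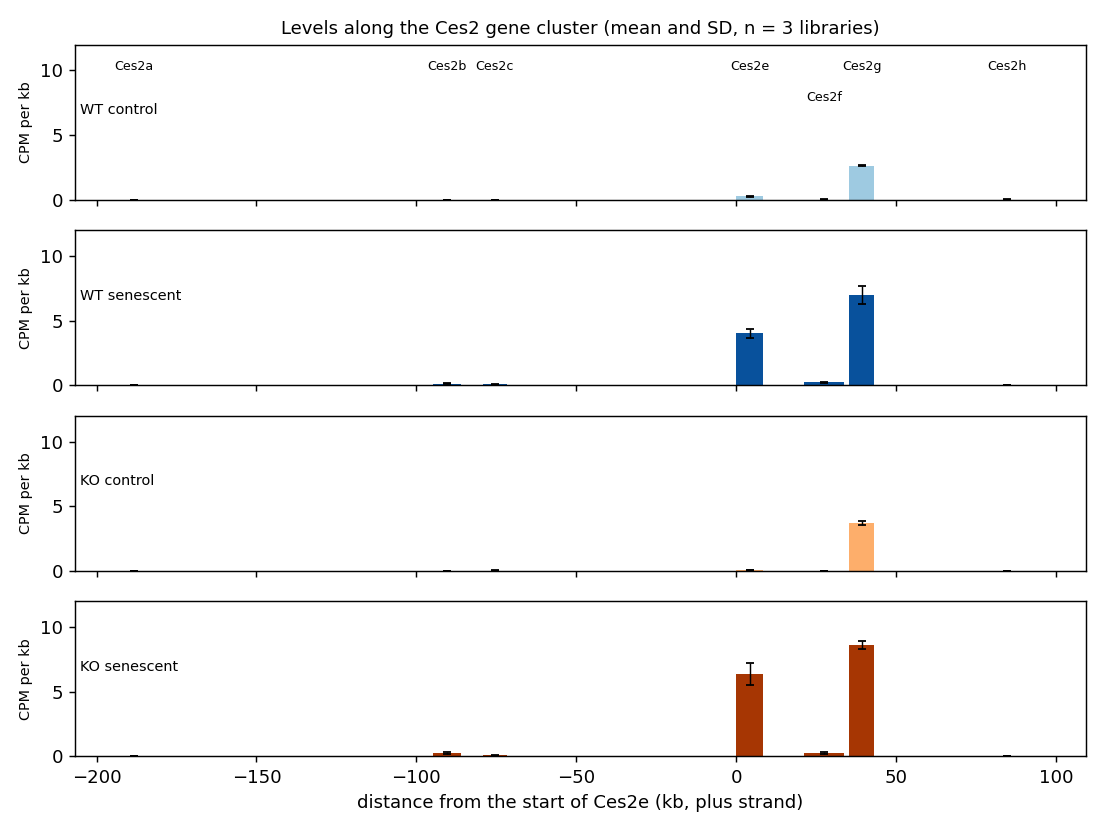
Mean CPM per kb of exon (bar height, with SD, n = 3 libraries) of the 7 genes of the Ces2 cluster against distance in kb from the start of Ces2e, in 1 panel per group; bar width is the span of the gene. Ces2e and Ces2g reached 4.0 and 6.97 CPM per kb in WT senescent cells and 6.37 and 8.61 in KO senescent cells, while Ces2a and Ces2h stayed at or near 0.

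Other cell types known to express carboxylesterases were checked through their markers. Each count of markers called with senescence stands beside 11.6% of all genes tested called higher in WT and 11.2% in KO cells. In either direction these shares were 17.4% and 18.8%. Of 8 adipocyte markers 4 were tested, and 2 were called higher in WT and 3 in KO senescent cells. Adipoq, Plin1 and, of the keratinocyte markers, Cdh1 were too low in control cells to pass the filter other than through senescent libraries. Counts of called markers that include them are no support. Their summed level was 15.5 to 17.9 CPM in WT control, 26.8 to 33.7 CPM in WT senescent, 13.7 to 16.7 CPM in KO control and 26.2 to 29.0 CPM in KO senescent libraries, nearly all of it from Fabp4 and Lipe. Adipoq, the defining adipokine, averaged 0.0286 CPM in control and 0.323 CPM in senescent WT cells, and 0.0522 and 0.329 CPM in KO cells. Plin1, a droplet coat protein of adipocytes, averaged 0.158 and 0.298 CPM in WT and 0.0522 and 0.848 CPM in KO cells. Both were thus at higher means in senescent cells, at low levels, and Lep was at 0 in all senescent libraries. Of 9 keratinocyte markers 5 were tested and 3 were higher in senescent cells of each genotype, with 1 lower in KO, and their sum was 10.7 to 16.1, 26.8 to 30.6, 11.7 to 14.0 and 20.2 to 22.8 CPM in the same order of groups. Krt15 averaged 1.1 CPM in control and 9.8 CPM in senescent WT cells, and 0.588 and 8.35 CPM in KO cells, whereas Krt14, which defines basal keratinocytes, averaged 0.0451 to 0.195 CPM over the groups.

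Sebocyte markers summed to 1.86 to 3.6 CPM, with Awat1 and Krt79 at 0 in all control libraries. Of 3 sebocyte markers tested, 1 was called higher in WT and 1 lower in KO senescent cells. Mc5r could pass the filter only through senescent libraries, so a count that includes it is no support. Chondrocyte markers fell, with 6 of 7 called lower in each genotype, to sums of 1910 to 2210 CPM in WT and 599 to 695 CPM in KO senescent libraries, against 7290 to 9070 and 4740 to 6560 CPM in the respective controls. Summed macrophage markers were 12.0 to 19.2, 18.5 to 21.8, 11.8 to 15.0 and 14.2 to 19.9 CPM, and those of endothelium 1.94 to 8.13 CPM over all libraries. Of 5 macrophage markers tested, 1 was called higher in each genotype and none lower. Lyz2 was too low in control cells to pass the filter other than through senescent libraries, so a count that includes it is no support. Lyz2 averaged 0.351 CPM in control and 1.96 CPM in senescent WT cells, and 0.191 and 2.86 CPM in KO cells. Cd14 and Cd68 also had higher means in senescent cells of both genotypes. Ptprc had lower ones, at 7.63 and 7.13 CPM in WT and 6.83 and 4.58 CPM in KO cells. The means of Adgre1, Csf1r, C1qa and C1qb moved in opposite directions in the genotypes. Of 4 endothelial markers tested, 1 was called higher in WT and none in KO. The part of these cells in the carboxylesterase changes was not tested, and in bulk RNA fewer cells of a type cannot be told apart from less RNA per cell.

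Lists of related enzymes and regulators were examined to place the members in their pathways. Of 26 other genes listed for ester and lipid hydrolysis, not all of which encode hydrolases, 24 were tested. In WT senescent cells 3 were higher (Lpl, Pnpla2 and Acot2) and none was lower, 12.5% of the list against 17.4% of all genes tested in either direction. The list's median log2 fold change was 0.32, and that of all genes was 0.02. In KO senescent cells 3 were higher (Ache, Bche and Pnpla2) and 2 lower (Acot1 and Faah), 20.8% of the list and close to the 18.8% of all genes tested. Pnpla2, adipose triglyceride lipase, was called in both genotypes, with changes of 1.21 in WT (SE 0.118, adjusted p 1.9e-08) and 1.48 in KO (SE 0.115, adjusted p 4.58e-10).

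Lpl, which hydrolyses circulating triacylglycerol, measured 1.04, 1.02 and 0.948 CPM in control and 3.47, 2.93 and 4.28 CPM in senescent WT libraries. In KO libraries it measured 7.76, 9.19 and 7.68 CPM (control) and 10.3, 13.6 and 7.02 CPM (senescent). All KO libraries lay above all WT libraries, and the 2 KO groups overlapped. The senescence change was 1.81 in WT (SE 0.255, adjusted p 4.03e-06) and 0.32 in KO (SE 0.186, adjusted p 0.15) on the log2 scale. KO exceeded WT by 3.03 in control (SE 0.241, adjusted p 2.86e-08) and 1.53 in senescent cells (SE 0.198, adjusted p 1.09e-05). Acot1, an acyl-CoA thioesterase, measured 10.2, 10.5 and 9.29 CPM in control and 5.78, 5.35 and 6.86 CPM in senescent WT libraries. In KO libraries it measured 13.3, 17.0 and 14.2 CPM (control) and 2.31, 1.91 and 1.59 CPM (senescent). No groups overlapped, and KO cells held both the highest and the lowest. The senescence change was −0.74 in WT (SE 0.14, adjusted p 0.000114) and −2.94 in KO (SE 0.156, adjusted p 1.04e-12).

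Of 18 genes of lipid droplets and triacylglycerol synthesis 16 were tested, and 2 were called with senescence in each genotype, all higher (Lpin1 and Plin5 in WT, Lpin1 and Plin1 in KO). This was 12.5% of the list in each genotype, below the 17.4% in WT and 18.8% in KO of all genes tested. Lpin1, a phosphatidate phosphatase, rose by 1.59 in WT (SE 0.0721, adjusted p 9.76e-14) and 1.03 in KO (SE 0.0699, adjusted p 5.92e-11). Plin4, a lipid droplet coat protein, differed between genotypes in senescent cells, at −1.51 for KO relative to WT (SE 0.147, adjusted p 4.09e-06), and Apob, the lipoprotein component, was higher in KO in both states, by 1.49 in control (QL adjusted p 0.00872) and by 1.35 in senescent cells (QL adjusted p 0.008).

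Enzymes of drug and xenobiotic metabolism form the other pathway in which carboxylesterases act. All 21 listed genes were tested, and 11 were called higher and none lower in WT senescent cells, 52.4% of the list against 17.4% of all genes tested. In KO senescent cells 8 were higher and none lower, 38.1% against 18.8% of all genes tested. The median log2 fold change was 1.29 in WT and 0.87 in KO cells, against 0.02 and −0.003 over all genes tested. Of all genes tested, 11.6% in WT and 11.2% in KO were called higher. The list was chosen with earlier results of these data known, so its shares and medians are a description. Fmo1, Gstt1 and Mgst1 were called in WT alone. Between genotypes in control cells Gstt1 was called higher and Aldh1a1 and Cyp1a1 lower in KO, 14.3% of the list against 2.54% of all genes tested. In the interaction only Gstt1 was called, and lower, 4.76% of the list against 3.66% of all genes tested. The genes called with senescence in both genotypes were Adh1, Aldh1a1, Aldh3a1, Cyp1a1, Ephx1, Fmo2, Sult1a1 and Ugt1a7c.

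Among them Fmo2, a flavin monooxygenase, had 1, 0 and 1 counts in WT control and 55, 81 and 81 in WT senescent libraries, and 1, 0 and 2 counts in KO control and 67, 132 and 95 in KO senescent libraries. Its control libraries were all below the floor and its senescent libraries all above it. The ratio of summed counts was 91.3 in both genotypes (exact 95% interval 25.0 to 759 in WT and 30.9 to 445 in KO), with QL adjusted p of 6.42e-09 in WT and 1.15e-09 in KO. Fmo2 passed the filter only through its senescent libraries and therefore had to differ, so these p-values are no support. Cyp1a1, the classical target of the aryl hydrocarbon receptor, rose by 5.09 in WT (SE 0.207, adjusted p 1.72e-14) and 6.37 in KO (SE 0.247, adjusted p 6.94e-15), and in control cells its log2 fold change of KO relative to WT was −1.56 (SE 0.426, QL adjusted p 0.0244). With 2 to 12 counts in control libraries, Cyp1a1 likewise passed the filter only through its senescent libraries. The counts and shares of called genes above include Fmo2 and Cyp1a1 and are to that extent no support. Aldh1a1, a retinaldehyde dehydrogenase, rose in both genotypes, by 4.71 (QL adjusted p 3.02e-08) and 4.03 (QL adjusted p 1.02e-07), and was lower in KO than in WT in both states, at −1.12 in control (QL adjusted p 0.00637) and −1.80 in senescent cells (QL adjusted p 7.42e-05). Aldh3a1 rose by 2.53 in WT (QL adjusted p 1.05e-06) and 3.78 in KO (QL adjusted p 1.06e-08).

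Of 14 nuclear receptors and stress sensors 11 were tested. Ppara was called higher in WT senescent cells and Pparg, the regulator of adipocyte differentiation, lower in KO senescent cells, at −1.07 (SE 0.0725, QL adjusted p 5.8e-11). This was 9.09% of the list in each genotype, below the 17.4% in WT and 18.8% in KO of all genes tested. Pparg also fell in WT cells, at −0.75 (SE 0.0672, QL adjusted p 5.59e-09), below the fold threshold. In senescent cells Pparg was called lower in KO than in WT, at −1.12 (SE 0.0721, QL adjusted p 9.2e-10). Nr1h3, the oxysterol receptor LXRα, was lower in KO than in WT in control cells, at −1.11 (SE 0.15, QL adjusted p 2.6e-05), and in senescent cells, at −1.17 (SE 0.143, QL adjusted p 4.75e-06). The list's median log2 fold change was between −0.12 and 0.14 in all 5 comparisons.

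The genes whose profile over the 12 libraries was most like that of Ces2e were found by the root mean square (RMS) difference of log2 CPM, each gene centred on its own mean, among the 13879 tested genes whose mean reached 1 CPM. The 8 nearest were Gm10800 (RMS 0.507), Cyp1a1 (0.508), Esm1 (0.632), Gm26870 (0.64), Gm10801 (0.673), Scn3b (0.74), Wif1 (0.747) and Sprr1a (0.764), against a median of 2.67 over all candidates. A gene without any change would have an RMS of 2.65, the size of the Ces2e profile itself, so the median mostly reflects that size. All 8 had a higher mean in both senescent groups than in both control groups, and a lower mean in KO control than in WT control cells. Their choice by likeness to Ces2e favours this pattern. Cyp1a1 had 0.348 ± 0.127, 12.1 ± 1.04, 0.116 ± 0.0392 and 9.95 ± 0.192 CPM in that same order of groups, and unlike that of Ces2e its mean in KO senescent cells was below that in WT senescent cells. Gm10800, Gm10801 and Gm26870 varied widely among senescent replicates, with Gm10800 at 78.7 ± 36.0 CPM in WT (SD, n = 3). Ces2g was 731st by this measure (RMS 2.08).

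The measure rewards equal size of change as well as equal shape. By the Pearson correlation in its place, 0 of the 8 genes were among the 8 nearest, and the list is therefore particular to the measure.

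**Figure D5:**
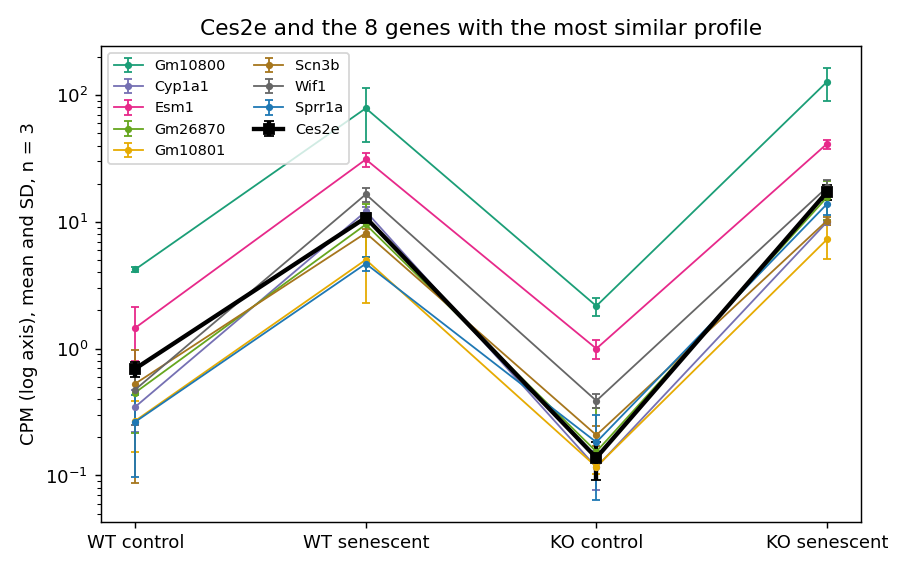
Mean CPM (log axis) in the 4 groups of Ces2e (black, thick line) and of the 8 genes with the smallest RMS difference from it, with SD of 3 libraries as bars (the lower bar is left out where the SD exceeds the mean). All 9 genes were higher in both senescent groups, and Ces2e had means of 0.695 and 10.8 CPM in the WT groups and 0.138 and 17.2 CPM in the KO groups.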

How the data were processed

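RNA-seq counts were analysed from 12 libraries, 3 in each of 4 groups, with every library placed in its group by its title. The deposited values were raw counts per gene, which the authors made from paired reads with Trimmomatic 0.36, STAR 2.5.2b (GRCm38) and featureCounts on uniquely mapped reads in exons, after conversion with bcl2fastq 2.17. The strand setting and annotation release are not given in the sources used here. Symbols were found for 48970 and GRCm38 coordinates for 49056 of the 49315 gene identifiers. In the study, differential expression was tested with DESeq2.

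Genes were kept by filterByExpr, scaled by TMM and fitted over all 12 libraries with edgeR 4.0.16 (robust quasi-likelihood, R 4.3.3, limma 3.58.1), with Benjamini-Hochberg adjustment over the 17416 genes tested. A gene was called at an adjusted p under 0.05 and a log2 fold change over 1 in size. SD is over 3 libraries. Ratios of summed counts have exact 95% binomial intervals. Alternatives were DESeq2 1.42.0, its size factors, other filters, a replicate block, fits on the groups compared alone, and each library left out. The fit was tested on simulated counts with known changes.

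The members, gene lists and markers were chosen with earlier results of these data known. Of each list, at most 4 called genes averaging 1 CPM or more were named in full, in order of their WT senescence change, and the other called genes by name only. Called genes within 200 kb of the clusters and the 8 genes most like Ces2e were also named. Markers were those of fibroblasts, adipocytes, keratinocytes, sebocytes, macrophages, endothelium, chondrocytes, melanocytes and skeletal muscle. Sequences are from RefSeq.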

Additional observations from a re-analysis of the deposited data

Results flagged for a closer look

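Of the genes described with full values, Lpl and Acot1 changed with senescence differently in the 2 genotypes by the interaction term of the QL fit. For Lpl the KO log2 fold change less the WT one was −1.49 (SE 0.318, QL adjusted p 0.0024), with a rise of 1.81 in WT cells and a change of 0.32 in KO cells. For Acot1 it was −2.2 (SE 0.21, QL adjusted p 1.05e-06), with −0.74 in WT and −2.94 in KO cells. Faah and G0s2 of the same list were also called lower in this comparison, which makes 4 of 24 tested genes of that list (16.7%) beside 3.66% of all genes tested. That list was chosen with earlier results of these data known, so the share is a description.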

How the results depend on the processing

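In WT senescence the 4 members tested kept their direction and stayed called under all 18 alternatives, with log2 fold changes of 3.88 to 4.06 for Ces2e, 4.57 to 5.37 for Ces2f, 1.33 to 1.48 for Ces2g and 6.85 to 7.74 for Ces1f. Ces2f and Ces1f passed the main filter only through their senescent libraries and had to differ, so their calls are no support. In KO senescence Ces2e ranged from 6.66 to 7.06. Without the fold threshold 1 member, Ces2g, was called between genotypes in control cells and 1, again Ces2g, in senescent cells, against 0 with it. Values on 2 or fewer control counts changed sign. For Ces2f, KO against WT in control cells was 0.22 without WT control replicate 1, 0.23 without WT control replicate 2 and 0.50 without KO control replicate 2 (range with each library left out −0.57 to 0.50), and its interaction was −0.19 without KO control replicate 2 (range −0.19 to 0.88). The interaction of Ces1f was 0.86 without KO control replicate 1 (range −2.41 to 0.86), and −0.84 by DESeq2. Genes called between genotypes in control cells numbered 442, but 283 without WT control replicate 1, 753 without WT control replicate 3 and 273 with only those groups fitted, and the cause was not tested. Replicate numbers did not pair the libraries: deviations of same-numbered control and senescent libraries correlated at 0.0147, 0.0432 and 0.108 in WT and at −0.125, 0.0452 and −0.0953 in KO, not all above the 0.1 required. With a replicate block 4 members were called in WT senescence as without it, the interaction of Ces2e was 2.93, and the genes called numbered 2961 in WT and 3205 in KO senescence. At this depth Ces1d, Ces1g and Ces2c lay at or near the floor, so that a change of several-fold in them could go undetected.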

Other observations

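The melanocyte and skeletal muscle markers also moved in part. Among all genes tested 17.4% in WT and 18.8% in KO were called with senescence in either direction. Summed skeletal muscle markers had a mean of 50.2 CPM in WT control, 15.1 CPM in WT senescent, 27.9 CPM in KO control and 20.3 CPM in KO senescent cells, with 1 of 4 tested genes called higher and 1 lower in WT and 3 higher in KO senescence. Summed melanocyte markers averaged 4.55, 2.61, 2.2 and 2.81 CPM in the same order, with 1 of 3 tested genes lower in WT and 1 higher in KO. Myh1 was too low in control cells to pass the filter other than through senescent libraries, so the muscle counts are to that extent no support. The part of the melanocyte and muscle markers in the carboxylesterase results was not tested.

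Within the senescent groups the carboxylesterases did not vary by the same factor. KO senescent replicate 1 was the lowest library for Ces2e, Ces2f, Ces2g, Ces1f and Ces2b, with the highest library 1.29-fold above it for Ces2e, 1.8-fold for Ces2f, 1.08-fold for Ces2g, 1.94-fold for Ces1f and 1.84-fold for Ces2b. WT senescent replicate 3 was the lowest for Ces2f, Ces2g, Ces1f and Ces2b, and replicate 2 for Ces2e. Replicates have no order, and genes from the same libraries are not independent, so these are values only.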
